A study of Mesocricetus auratus with 6 samples.

Results

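Transcripts of blood vessel cells and of the factors that direct vessel growth were compared in the golden hamster uterus on day 5 of pregnancy, between sites that held an implanting embryo and sites between embryos. The golden hamster, Mesocricetus auratus, is a rodent with a short pregnancy. The genes are 37 named components of vessel endothelium and of vessel growth signalling, taken as listed and matched to every probe set whose platform annotation gave one of these symbols. A probe set is a group of short probes on the array that together read 1 transcript. The rule found 62 probe sets of 22215 tested, for 34 genes of 11963. EDNRA, ESAM and ECSCR had no probe set named for them and were not analysed here.

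The groups were 3 arrays of implantation site RNA and 3 arrays of interimplantation site RNA, each called a biological replicate in the labels. The animals had no treatment and the labels give no strain, genotype or age. The design text speaks of 3 animals but no label ties an array to one, so a p-value here weighs a difference against the variation among these 3 and 3 arrays. Whole pieces of uterus were extracted, and fewer vessel cells and less RNA per vessel cell cannot be told apart in such RNA.

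New vessels grow from existing endothelium when vascular endothelial growth factors (VEGFs) bind their receptors on endothelial cells. Angiopoietins then act through the receptor TIE2 to loosen or settle the vessel wall, and the ephrin-B2 and EphB4 pair separates arteries from veins. In rodents the uterine bed around an attaching embryo becomes more permeable and is later remodelled with the decidua, the transformed stroma that surrounds the embryo. These facts are background, and none of them was measured here.

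The arrays carried probes designed on human transcripts, so how well a probe set reads the hamster transcript depends on how far the sequences match. A dim probe set therefore shows neither that a transcript was absent nor that it did not change, and levels of different genes cannot be ranked. Values are log2 units after RMA, a method that brings all arrays to one distribution. Their medians lay between 4.18 and 4.20, and the middle probe set of the table had a mean of 4.19. Where a gene had several probe sets it is described first by the brightest. Arrays of one group correlated at 0.989 to 0.995 and arrays of different groups at 0.985 to 0.992 over all probe sets. The 3′ minus 5′ signal of a control transcript is meant to track RNA quality. With human probes it can also depend on how far each end matches the hamster sequence. For actin it was −2.33 to −1.92 at implantation and −1.87 to −1.59 at interimplantation sites (log2). The actin groups did not overlap (exact permutation p = 0.1, two-sided, the smallest that this number of arrays allows). For GAPDH the groups overlapped, at −0.3 to −0.02 and −0.03 to 0.31, with means of −0.2 and 0.13. Levels of the controls bioB, bioC, bioD and cre overlapped between groups as well, but each mean was lower at implantation sites. The means were 5 against 5.26, 6.66 against 6.99, 8.17 against 8.51 and 10.36 against 10.7 (exact permutation p = 0.2 for bioB and 0.3 for the others). The actin signal thus moved with the groups. Its part in the differences below, and that of the other controls, was not tested.

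EFNB2, which encodes the membrane ligand ephrin-B2, was the 1 member that rose, and 0 fell. This is 1 of 34 genes, or 2.94%, against 1.24% of all genes past the same threshold in either direction (limma, Benjamini-Hochberg adjusted p under 0.05 over all genes). For rises alone the share over all genes was 0.777% and for falls 0.460%. At an unadjusted p under 0.05, 2 member genes were higher and 5 lower, together 20.6% against 10.9% of all genes. Over all genes 5.68% were higher and 5.22% lower by that measure. The groups did not overlap in 9 member genes, or 26.5%, against 16.5% of all genes; 4 of the 9 were higher and 5 lower, where all genes had 8.36% and 8.09%. Among single probe sets 1 of 62, or 1.61%, passed, against 1.06% of all probe sets, and 9, or 14.5%, had an unadjusted p under 0.05, against 10.5% of all probe sets. The groups did not overlap in 11 of the 62, or 17.7%, with 4 higher and 7 lower. Of all 22215 probe sets, 1714 were higher and 1844 lower without overlap.

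**Figure D1:**
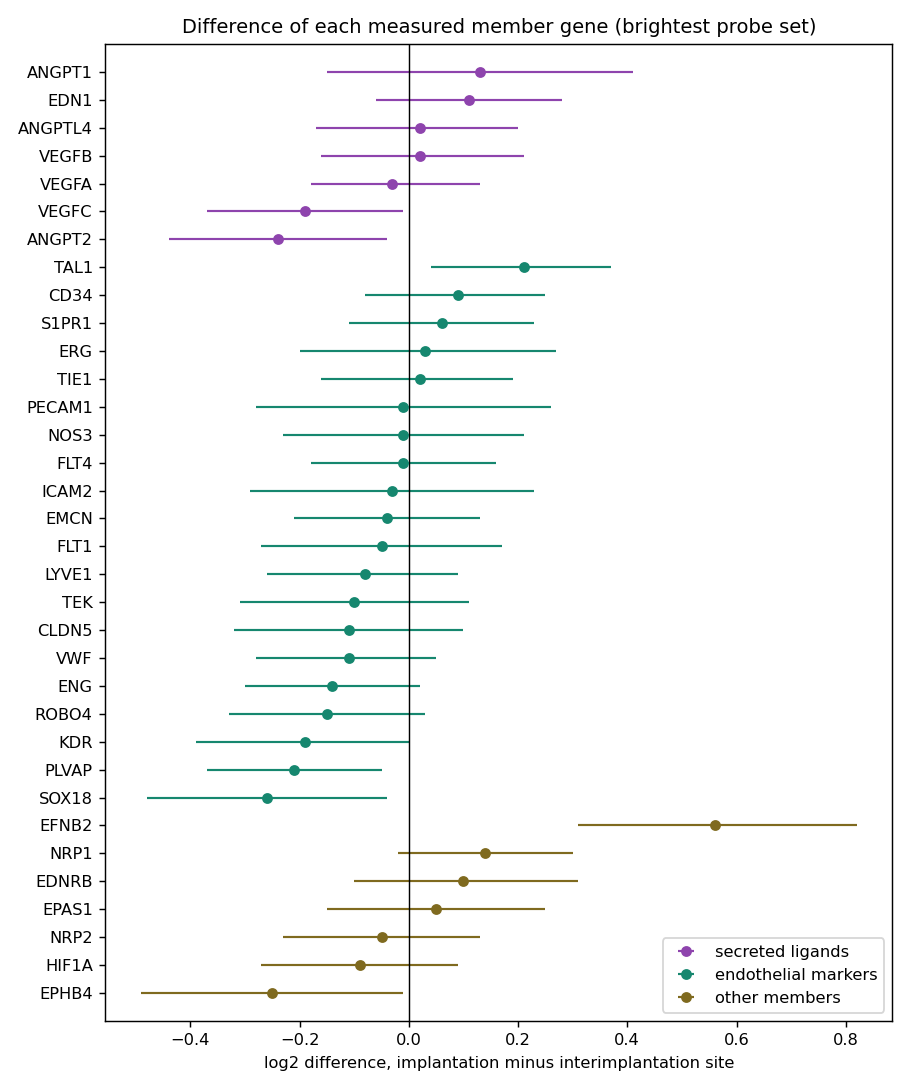
Log2 difference of each of the 34 measured genes, implantation minus interimplantation site (horizontal axis, log2 units), with points for the estimate from the brightest probe set and bars for its 95% confidence interval, not adjusted for the number of genes. Colours separate 7 secreted ligands, 20 endothelial markers and 7 other members. EFNB2 at 0.56 stands apart to the right, and the other 33 genes lie between −0.26 and 0.21.

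EFNB2 measured 6.40, 5.96 and 6.06 in implantation sites 1 to 3 and 5.75, 5.52 and 5.46 in interimplantation sites 1 to 3. All 3 implantation arrays were above all 3 interimplantation arrays, with the lowest of the former 0.21 above the highest of the latter. The means were 6.14 ± 0.23 and 5.58 ± 0.15 (SD, n = 3 arrays per group). This was a 1.48-fold rise (log2 0.56 ± 0.12 SE, limma adjusted p = 0.0392 over genes and 0.0473 over probe sets). The second EFNB2 probe set, which was dimmer, had 4.33, 4.37 and 4.37 against 4.33, 4.05 and 4.27. Its difference was 0.14 ± 0.09 SE (limma adjusted p = 0.639), and its groups overlapped. Which cells carried the EFNB2 transcript, of vessels or of other tissue, cannot be told from RNA of whole pieces.

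The rise of EFNB2 lay close to the threshold. It did not pass without implantation site 1 (log2 0.44, limma adjusted p = 0.114), without implantation site 3 (0.60, 0.0873), without interimplantation site 2 (0.53, 0.135) or without interimplantation site 3 (0.51, 0.173). The mean of both probe sets was at 0.35 (limma adjusted p = 0.102). Every one of the 18 alternatives kept the direction. Leaving out an array could not reverse it, since the groups did not overlap, and several other alternatives left the value unchanged. The kept direction was thus largely fixed beforehand.

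**Figure D2:**
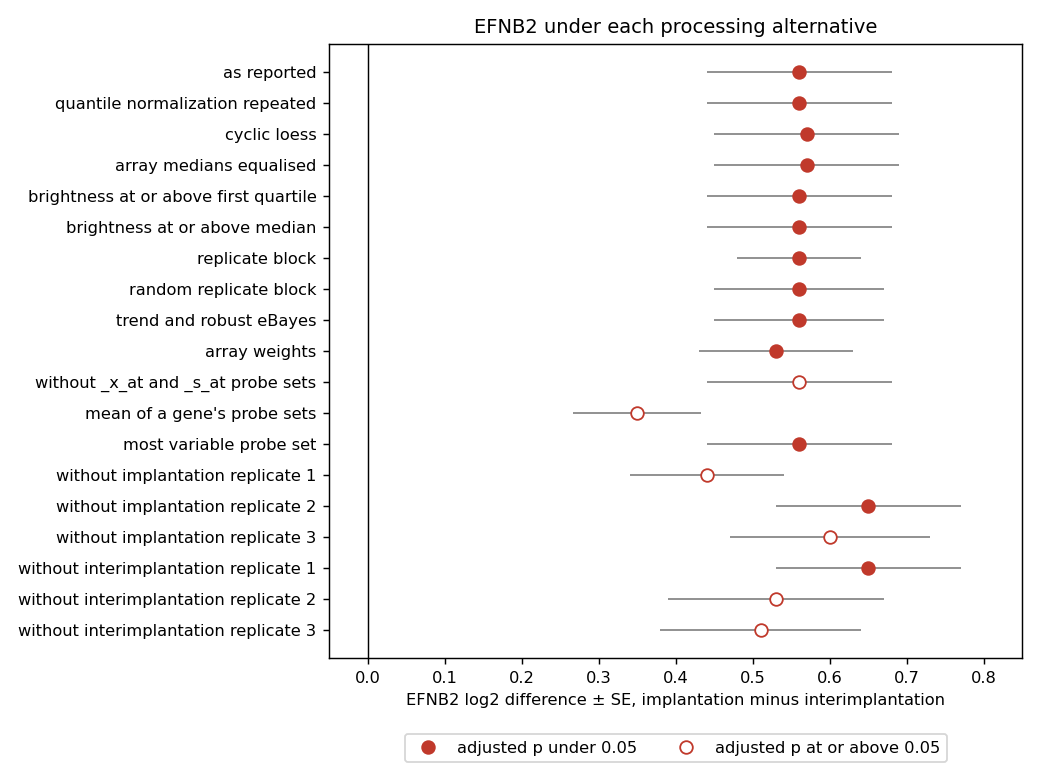
Log2 difference of EFNB2, implantation minus interimplantation site, as reported and under each of 18 alternatives (rows), with bars for the SE of limma's fit. Filled points passed an adjusted p of 0.05 and open points did not. All values lie between 0.35 and 0.65, and 6 of the 18 alternatives are open.

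EPHB4, the venous receptor that binds ephrin-B2, lay on the other side of 0 but did not pass. Its brightest probe set measured 6.17, 5.72 and 6.12 at implantation sites against 6.24, 6.27 and 6.26 at interimplantation sites. The interimplantation arrays were nearly identical and all above the implantation arrays, among which replicate 2 was the lowest. The difference was −0.25 ± 0.11 SE with a 95% interval of −0.49 to −0.01 (limma adjusted p = 0.419). The other EPHB4 probe set was at −0.02 ± 0.11 SE, with overlapping groups. A call for EFNB2 and none for EPHB4 does not show that the genes differ, and that difference was not tested.

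**Figure D3:**
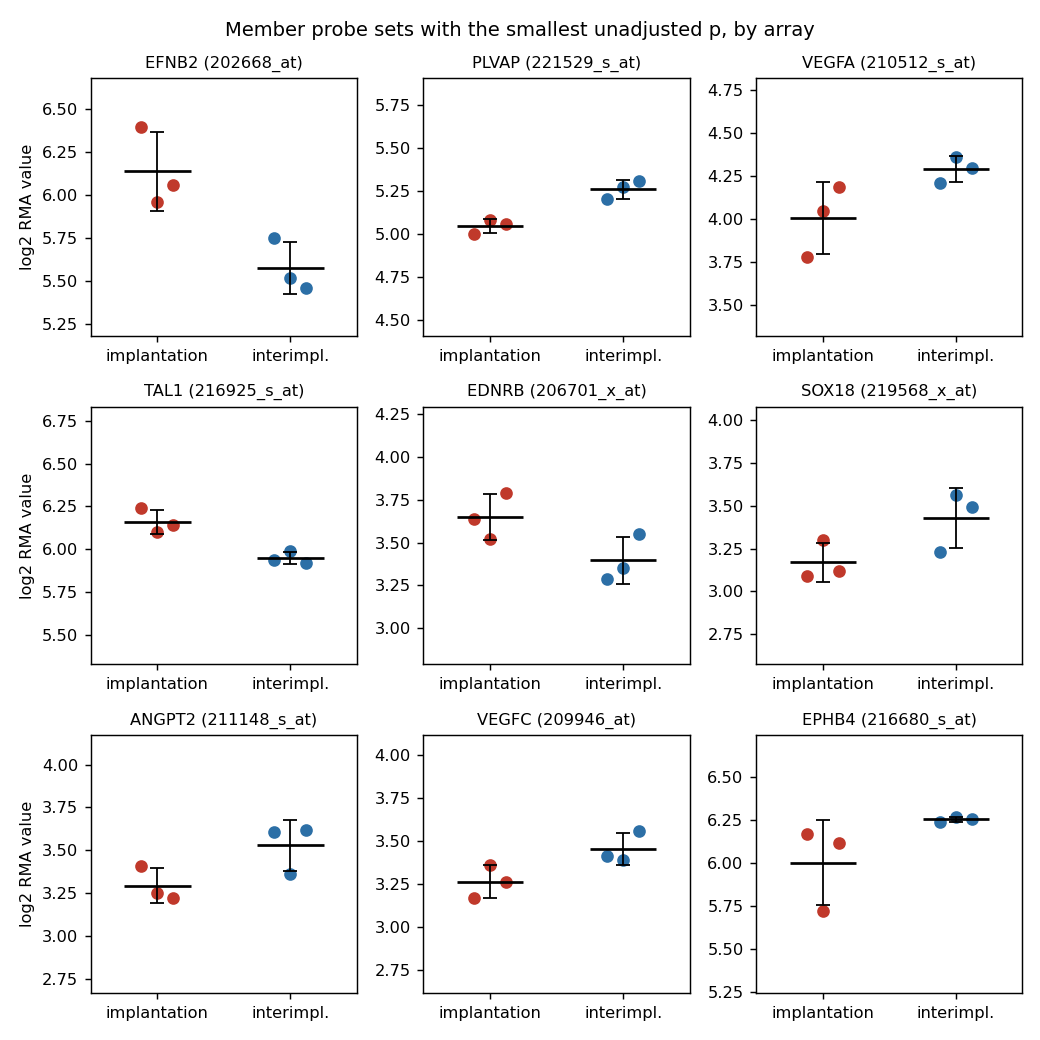
Log2 RMA value (vertical axis, the same span in each panel) on every array for the 9 member probe sets with an unadjusted p under 0.05, with red points for implantation and blue points for interimplantation sites. Black lines give group means and bars the SD over 3 arrays. EFNB2 shows the widest gap between groups, and 3 of the other panels (EDNRB, SOX18 and ANGPT2) show groups that overlap.

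Among the VEGF ligands, none of 3 passed. VEGFA, the principal growth and permeability factor of endothelium, was bright at 2 of its 4 probe sets, with differences near 0 at both. The brightest measured 6.21, 6.28 and 6.21 at implantation against 6.23, 6.27 and 6.28 at interimplantation sites. Its difference was −0.03 ± 0.07 SE, with a 95% interval of −0.18 to 0.13. The next brightest was at 0.08 and the third at −0.10. The dimmest VEGFA probe set stood apart from them, with 3.78, 4.05 and 4.19 at implantation against 4.21, 4.36 and 4.30 at interimplantation sites. Its groups did not overlap, yet its difference of −0.29 ± 0.10 SE did not pass (limma adjusted p = 0.308 over probe sets).

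VEGFC, the ligand of lymphatic growth, measured 3.17, 3.36 and 3.26 at implantation against 3.41, 3.39 and 3.56 at interimplantation sites. The groups did not overlap, and the difference was −0.19 ± 0.08 SE (limma adjusted p = 0.419). VEGFB, a ligand of the receptor FLT1, was at 0.02 (interval −0.16 to 0.21).

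The VEGF receptors were read by dim probe sets, all 5 under the median brightness, and none of 3 genes passed. KDR encodes VEGFR2, the main signalling receptor for VEGFA. It measured 3.33, 3.33 and 3.11 at implantation against 3.45, 3.33 and 3.56 at interimplantation sites, where the groups met at 3.33 to 2 decimals. Its difference was −0.19 ± 0.09 SE (limma adjusted p = 0.468). FLT1, which encodes VEGFR1, a receptor that also traps VEGF in a soluble form, had 3.66, 3.39 and 3.72 against 3.71, 3.51 and 3.71, a difference of −0.05 ± 0.10 SE with overlapping groups. Its 3 probe sets were at −0.05, −0.13 and −0.05. FLT4, the receptor for VEGFC on lymphatic endothelium, was at −0.01 (interval −0.18 to 0.16). All 5 receptor probe sets were thus below 0 by 0.19 or less, and none passed.

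The neuropilins are coreceptors that bind VEGF and semaphorins, on endothelium and on other cells. NRP1 measured 5.22, 5.13 and 5.12 at implantation against 5.03, 5.02 and 5.00 at interimplantation sites. Its groups did not overlap, but the gap was small (log2 0.14 ± 0.07 SE, limma adjusted p = 0.524), and its 2 dimmer probe sets were at 0.00 and −0.01. NRP2 was at −0.05 at the brightest of 5 probe sets, and the 5 ran from −0.14 to 0.10.

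For the angiopoietins and their receptors, 0 of 5 genes passed. ANGPT2, which destabilises vessels by competing at TIE2, had 3.41, 3.25 and 3.22 at implantation against 3.61, 3.36 and 3.62 at interimplantation sites. Implantation site 1 lay above interimplantation site 2, so the groups overlapped (log2 −0.24 ± 0.09 SE, limma adjusted p = 0.343), and the other ANGPT2 probe set was at −0.04. ANGPT1, which stabilises vessels, had 4.78, 4.47 and 4.48 against 4.56, 4.65 and 4.14. The arrays of each group spread more widely than the groups differed (log2 0.13 ± 0.13 SE), and its dimmer probe set was at −0.12.

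TEK encodes TIE2 itself, the angiopoietin receptor. It measured 5.62, 5.81 and 5.49 at implantation against 5.84, 5.63 and 5.75 at interimplantation sites, with overlapping groups (log2 −0.10 ± 0.10 SE). TIE1, its partner receptor, was at 0.02 (interval −0.16 to 0.19). ANGPTL4, an angiopoietin-like inhibitor of lipoprotein lipase that is made in low oxygen, was at 0.02 (interval −0.17 to 0.20).

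Of the 3 measured genes of vessel tone 0 passed. EDN1, the constrictor peptide endothelin 1, was at 0.11 (interval −0.06 to 0.28). EDNRB, an endothelin receptor of endothelium and other cells, was at 0.10 at its brightest probe set. A dimmer EDNRB probe set measured 3.64, 3.52 and 3.79 at implantation against 3.29, 3.35 and 3.55 at interimplantation sites, where implantation site 2 fell below interimplantation site 3 (log2 0.26 ± 0.10 SE, limma adjusted p = 0.346 over probe sets). NOS3, the endothelial nitric oxide synthase that relaxes vessels, was at −0.01 (interval −0.23 to 0.21).

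HIF1A and EPAS1 encode the oxygen-sensitive subunits HIF-1α and HIF-2α, which drive VEGFA transcription in low oxygen. HIF1A was dim, with 2.80, 2.97 and 3.03 at implantation against 3.04, 3.04 and 2.97 at interimplantation sites, and overlapped between groups (log2 −0.09 ± 0.08 SE). EPAS1 was at 0.05 and 0.00 at its 2 probe sets. These subunits are regulated largely as proteins, which arrays do not read.

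Endothelial transcription factors lay on both sides of 0, and 0 of 3 passed. SOX18, a factor of vessel and lymphatic development, measured 3.09, 3.30 and 3.12 at implantation against 3.23, 3.56 and 3.49 at interimplantation sites. Implantation site 2 lay above interimplantation site 1, and the difference was −0.26 ± 0.10 SE (limma adjusted p = 0.331). TAL1, a factor of blood and endothelial precursors, had 6.24, 6.10 and 6.14 against 5.94, 5.99 and 5.92. Its groups did not overlap and the brightest probe set was higher (log2 0.21 ± 0.08 SE, limma adjusted p = 0.302), while its other 2 probe sets were at −0.07 and −0.04, so the sign depends on the probe set read. ERG, an ETS factor of mature endothelium, was at 0.03 (interval −0.20 to 0.27).

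The surface and junction proteins that define endothelial cells gave 0 calls among 10 measured genes. PECAM1 (CD31), the adhesion molecule at endothelial junctions, measured 5.15, 5.29 and 5.30 at implantation against 4.97, 5.25 and 5.56 at interimplantation sites. The interimplantation arrays enclosed all implantation arrays, and its 3 probe sets were at −0.01, 0.03 and 0.03. CD34, a sialomucin of vessels and blood progenitors, had 5.42, 5.46 and 5.40 against 5.36, 5.39 and 5.27, higher on each implantation array by a small step (log2 0.09 ± 0.07 SE, limma adjusted p = 0.752).

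PLVAP, the diaphragm protein of fenestrated endothelium, had the smallest p among the endothelial markers. It measured 5.00, 5.08 and 5.06 at implantation against 5.20, 5.27 and 5.31 at interimplantation sites. The groups did not overlap and both were tight, but the difference of −0.21 ± 0.07 SE did not pass (limma adjusted p = 0.274; interval −0.37 to −0.05). PLVAP was the 1 member for which no hamster gene of the same symbol stood in the RefSeq gene table. ENG, endoglin, a coreceptor for TGF-beta family ligands on endothelium, had 5.79, 5.70 and 5.75 against 5.91, 5.83 and 5.93, again without overlap (log2 −0.14 ± 0.07 SE, limma adjusted p = 0.523). Its other probe set was at −0.04, with overlapping groups.

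VWF, von Willebrand factor, had 4.35, 4.36 and 4.47 at implantation against 4.55, 4.46 and 4.50 at interimplantation sites (log2 −0.11 ± 0.08 SE). Its groups overlapped by 1 array, since implantation site 3 lay above interimplantation site 2. The remaining markers were ROBO4, a guidance receptor that steadies the vessel wall (−0.15), CLDN5, the endothelial tight junction claudin (−0.11), LYVE1, the hyaluronan receptor of lymphatic vessels (−0.08), EMCN, endomucin of capillaries and veins (−0.04), ICAM2, an adhesion molecule for leukocytes (−0.03), and S1PR1, the sphingosine 1-phosphate receptor that seals endothelium (0.06). Their groups overlapped in all 6.

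As a class, the 20 measured endothelial markers had 0 calls, a median difference of −0.05 and 15 members, or 75%, below 0. Of all 20 markers, 11 were read at or above the median brightness, among them the defining markers PECAM1, CD34, VWF, TEK and ENG, while KDR, EMCN and CLDN5 were dimmer. Over all genes the median was −0.01 and 52.4% were below 0. The groups did not overlap in 5 of the 20, with 2 higher (TAL1 and CD34) and 3 lower (PLVAP, ENG and KDR), while over all genes they did not overlap in 16.5%, with 8.36% higher and 8.09% lower. The 7 secreted ligands had a median of 0.02, with 3 below 0 and 0 calls. These are descriptions of lists whose genes are not independent of each other. The count of markers below 0 ran from 12 to 15 of 20 when single arrays were left out. The class median of deviations from each gene's own mean was −0.03, 0.01 and −0.06 in implantation sites 1 to 3 and −0.02, 0.00 and 0.07 in interimplantation sites 1 to 3, so the arrays of the groups overlapped.

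**Figure D4:**
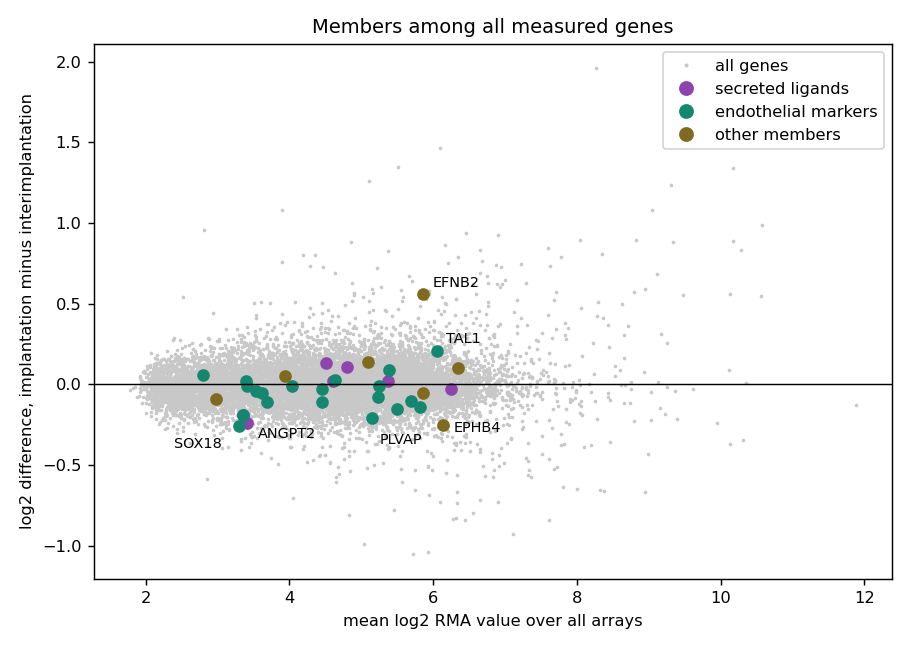
Log2 difference, implantation minus interimplantation site (vertical axis), against mean log2 RMA value over 6 arrays (horizontal axis) for 11963 genes in grey and the 34 members in colour. Of the 34 members 21 lie at or above the median probe set in brightness, 13 of them above the third quartile, and 2 below the first, and all except EFNB2 lie within 0.26 of 0.

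The size of change that these arrays leave room for was small on the array scale. For the 33 members that did not pass, the widest 95% interval reached 0.49 from 0, a 1.41-fold difference, and for 24 of them the interval stayed within 1.25-fold in both directions. These intervals are for single genes and are not adjusted for their number. They cover the spread between arrays and not a probe set that reads its hamster transcript weakly, where a true change would be reported smaller.

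Probe sets of one gene often disagreed in level, and this limits how far a single one can be read. Of 17 members with several probe sets, the gap between the dimmest and the brightest was largest in EDNRB (1.86 and 6.34), TAL1 (2.76 and 6.05) and NRP2 (2.74 and 5.86). Their differences between sites had the same sign in 6 of the 17 (FLT1, ANGPT2, EPAS1, ENG, EFNB2 and EPHB4). By ID, 5 of the 62 probe sets end in _x_at and 32 in _s_at, suffixes of probe sets whose probes can match more than 1 transcript.

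**Figure D5:**
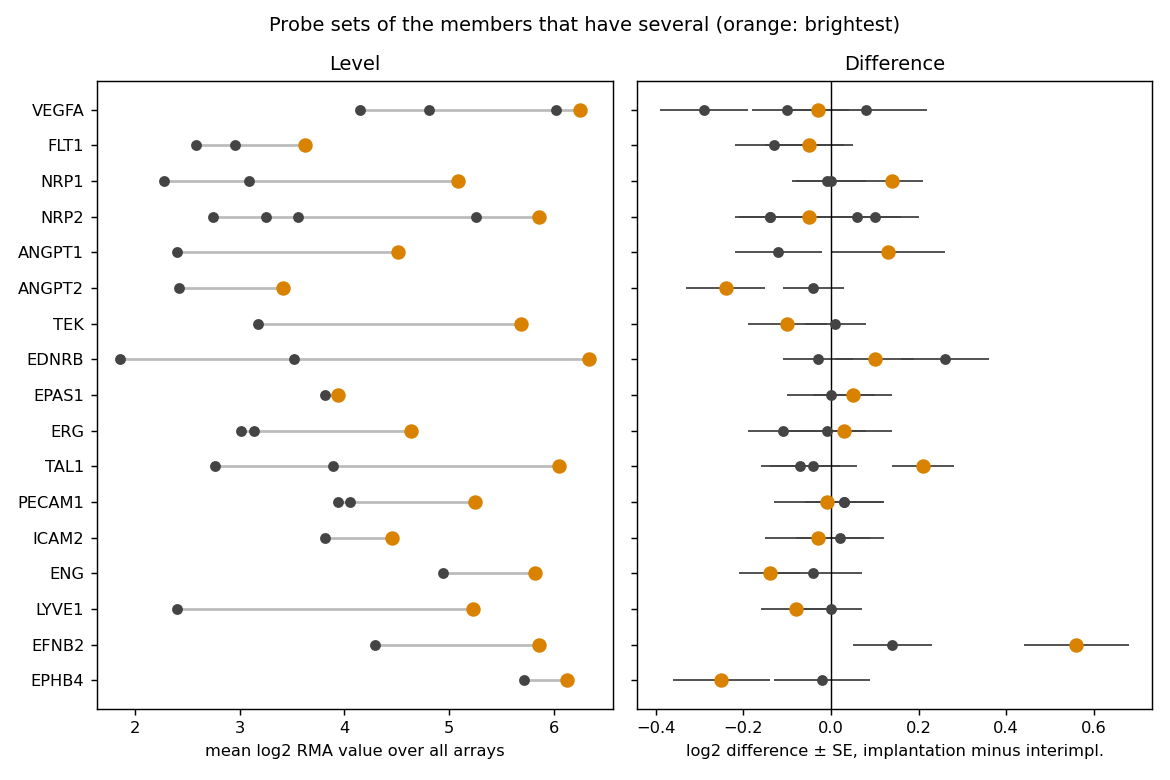
Mean log2 RMA value over 6 arrays (left) and log2 difference ± SE, implantation minus interimplantation site (right), for every probe set of the 17 members that have several, with the brightest in orange. Levels of one gene differ by up to 4.49 log2 units (EDNRB), while differences spread by 0.43 at most (EFNB2).

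Other genes of these pathways were read from lists by their brightest probe sets. The counts of calls in these lists and in the cell type lists stand beside 0.777% of all genes that rose and 0.46% that fell. Of 37 further endothelial genes 0 rose and 1 fell, with a median of −0.02. The fall was SOX17, a relative of SOX18 that marks arterial endothelium and also uterine epithelium (log2 −0.78 ± 0.12 SE, limma adjusted p = 0.00713). ETS1, an ETS factor of activated endothelium, was at −0.25 (adjusted p = 0.188), HEY1, a Notch target of arteries, at 0.22 (0.376), and CDH5, the junction protein VE-cadherin, at −0.05. None of 24 further angiogenic or antiangiogenic factors passed in limma's test, and 0 had an unadjusted p under 0.05; their differences ran from −0.20 (EFNA1) to 0.17, and PGF, placental growth factor, was at 0.02.

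Among 19 genes that carry the VEGF receptor signal inward, 14 were below 0, against 52.4% of all genes. Their median was −0.05. At an unadjusted p under 0.05 in limma's test 0 were higher and 5 lower, against 5.68% and 5.22% of all genes. Their sums did not overlap, at 10.16 to 10.26 at implantation and 10.34 to 10.43 at interimplantation sites (log2 of the sum over the list). Past the adjusted threshold 0 rose and 1 fell. The fall was PTPN11, the phosphatase SHP2, with 3.11, 3.12 and 3.15 at implantation against 3.67, 3.44 and 3.50 at interimplantation sites (log2 −0.41 ± 0.08 SE, limma adjusted p = 0.0310). It was dim, its other 4 probe sets were between −0.07 and 0.05, and it did not pass with the mean of all 5 (−0.10, adjusted p = 0.603), without the _s_at and _x_at probe sets (−0.07, 0.902) or without any 1 of 5 of the 6 arrays (up to 0.104). PPP3CA, the catalytic subunit of calcineurin, was at −0.52 (adjusted p = 0.0699) and FYN, a SRC family kinase, at −0.51 (0.142). These kinases and phosphatases serve many receptors in all cell types of the uterus.

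Of 21 genes of the HIF pathway, PGK1, a glycolytic enzyme, rose (log2 0.83 ± 0.13 SE, limma adjusted p = 0.00694) and 0 fell, with a median of −0.04. The PGK1 call ended when its 4 probe sets were averaged (0.34, adjusted p = 0.101) and when _s_at and _x_at probe sets were left out (0.23, 0.323). KDM3A, a histone demethylase induced in low oxygen, was at −0.24 (adjusted p = 0.287) and BNIP3L, a mitophagy receptor, at −0.27 (0.394). The 8 measured genes of sphingosine phosphate and endothelin processing had 0 calls and 0 unadjusted p under 0.05 in limma's test.

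Markers of other cells in the same pieces of uterus moved with the groups in part. Of 8 smooth muscle genes 0 rose and 3 fell (TAGLN, ACTG2 and MYLK, log2 −0.56, −0.80 and −0.53), although for each of them there were 5 arrays whose omission ended the call. The list did not move as one, since CNN1 was at −0.23, ACTA2 at 0.15 with groups that did not overlap, LMOD1 at 0.10, SMTN at 0.02 and MYH11 at 0.00. Their summed level was 8.62 to 8.64 at implantation and 8.74 to 9.04 at interimplantation sites (log2 of the sum over the list). Pericytes, the mural cells of capillaries, gave 0 calls among 8 genes, and their sums overlapped (8.31 to 8.43 and 8.28 to 8.42).

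Sums of the 5 measured red cell genes did not overlap, at 8.51 to 8.60 at implantation and 8.64 to 8.77 at interimplantation sites, and 0 of them passed. HBB, beta-globin, was the brightest probe set in that sum and had the smallest p (log2 −0.31 ± 0.10 SE, limma adjusted p = 0.206). AHSP and ALAS2 were at −0.17 and −0.16, EPB42 at −0.03 and SLC4A1 at 0.16. Sums of 8 epithelial genes did not overlap either, at 7.29 to 7.37 and 7.40 to 7.49, with 0 calls. Of the 8, 6 were below 0, with KRT19 at −0.39 and KRT8 at −0.24 (limma adjusted p = 0.127 and 0.259). The 2 above 0 were KRT7 at 0.05 and CLDN4 at 0.01. Leukocyte sums overlapped (7.33 to 7.40 and 7.31 to 7.41), with SPI1 lower as 1 of 7, as did those of 7 platelet genes (8.54 to 8.55 and 8.47 to 8.60; 0 calls). Sums of 8 stromal genes overlapped (11.55 to 11.65 and 11.33 to 11.59), with COL1A1 higher (log2 0.56) and PDGFRA lower (−0.66). Averaged over their probe sets these were at 0.28 and −0.26 and did not pass, COL1A1 was also at 0.28 after repeated quantile normalization, and the call of SPI1 ended with the omission of any of 5 arrays. SELP stands in both the platelet and the endothelial list. The 20 endothelial markers themselves summed to 9.05 to 9.08 and 9.08 to 9.14. No marker can be said to be absent, since arrays report a background value for every probe set, and the part of these cells in the vessel gene values was not tested.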

How the data were processed

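Per the submitters' processing notes, the authors made the deposited log2 values by RMA with Partek 6.6; no setting of RMA is stated, and the log base was read as 2 from the range of values (1.65 to 12.08). Arrays of mouse probes named in the design text were not used here. After 68 control probe sets were left out, 22215 were tested; platform annotation gave 1 gene to 19065, several to 1043 and none to 2107. RefSeq names of the assembly BCM_Maur_2.0 held 36 of the 37 symbols.

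The test was limma's moderated one (version 3.58.1, R 4.3.3; 2 groups, two-sided, no covariate), over all probe sets and over 11963 genes read at the probe set with the highest mean, with Benjamini-Hochberg adjustment over each and a threshold of 0.05. Adjusted p-values are over genes unless probe sets are named. SE is that of the fit; no scan date was used, so no batch could be tested. On simulated data for this comparison of 11963 genes, the fit recovered 50% of 60 genes changed 1.25-fold and 100% of 70 changed 1.5-fold. Of its 185 calls there, 15 were false. The changed genes were all drawn from those with a mean at or above the median of all values. No dim gene was changed, so these shares say nothing about dim members. The shares do not carry over to every bright gene either: MYLK passed with a 1.44-fold change, and PPP3CA with a 1.44-fold change did not.

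All members are named, with every array for those with an unadjusted p under 0.05 at any probe set and for VEGFA, KDR, FLT1, PECAM1, TEK, ANGPT1, ANGPT2, CD34, VWF, ENG and HIF1A. Of NRP1, each array is given although the rule did not ask for it. From the other lists the genes that passed and some of the smallest p are named; CDH5 and PGF were named after their values were seen. The members and lists were chosen with earlier results of these data known. Alternatives covered normalization, brightness filters, choice of probe set, replicate blocks, variance settings, array weights and each array left out.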

Additional observations from a re-analysis of the deposited data

How the results depend on the processing

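With 33 of 34 member genes uncalled, the processing bears on EFNB2. Over 18 alternatives the count of member genes higher was 1 in 12 and 0 in 6, and the count lower was 0 in all. It was 0 without the _x_at and _s_at probe sets, where the EFNB2 value was the same (log2 0.56, limma adjusted p = 0.0538) and fewer genes were tested, and 0 when all probe sets of each gene were averaged (0.35, 0.102). Leaving out single arrays gave counts of 0 to 1, with EFNB2 from 0.44 to 0.65. Over probe sets the count was 0 after array medians were equalised (0.57, adjusted p = 0.0512) and without the _x_at and _s_at probe sets (0.56, 0.0696), and 0 to 1 when arrays were left out. Of 584 member gene values under the alternatives, 578 kept their side of the threshold, 6 (all EFNB2) lost it and 0 reversed as calls.

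Whether the replicate numbers pair the arrays is not given in the labels. Deviations of same-numbered arrays correlated at 0.05, 0.00 and 0.07, and implantation site 2 correlated best with another number. So few arrays cannot decide whether they were paired. With the replicate number as a block the counts stayed at 1 higher and 0 lower, and EFNB2 was at 0.56 (adjusted p = 0.00754). In 11 of the 17 members with several probe sets the sign depended on the probe set read, as in TAL1 (0.21, or −0.07 without _s_at and _x_at probe sets), ANGPT1 (0.13, or −0.12 at its other probe set) and EDNRB (0.10, or −0.03); none of the 11 passed. Signal over background limits the members read by dim probe sets, among them the VEGF receptors, HIF1A, SOX18, VEGFC, ANGPT2, TIE1 and S1PR1.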
